A study of Mus musculus with 192 samples.

Results

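Transcription start signal was described for 5 genes of the antiviral ADP-ribosylation group in single mouse embryonic fibroblasts (MEFs): *Parp9*, *Dtx3l*, *Parp10*, *Parp12* and *Parp14*. They were the 5 named members among 11647 genes with a listed peak near their start, and 99 of the 553094 start-site windows in the authors' RefSeq-based table carried their names within 1000 bp of the annotated start. A peak counted for a member when it lay on the strand of the gene and began within 2 bp of such a window. *Parp9* and *Dtx3l* are read in opposite directions from a shared promoter, so windows named for either gene were pooled and split by strand, and a peak also had to lie within 1000 bp of the annotated start of its own gene.

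The study applied single-cell TSS-seq, which captures the 5′ ends of polyadenylated RNA, to 96 naive and 96 pretreated cells. All cells were MEFs of the C57BL/6 strain, were grown on uncoated plastic in serum-containing medium, and received IFN-beta at 100 U/ml for 1 h. Pretreated refers to a step before that exposure. The labels do not give the agent, dose or time of the pretreatment, name no separate cultures or embryos, and include no cells without interferon. Each group was therefore a single sample made of its cells, no difference between the groups had a replicate check, and the intervals below cover counting error only.

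PARP enzymes attach ADP-ribose to proteins and nucleic acids. Parp10, Parp12 and Parp14 transfer single ADP-ribose units, Parp9 carries macrodomains that bind ADP-ribose, and Dtx3l is a Deltex-family ubiquitin ligase that forms a complex with Parp9. All are known as interferon-stimulated genes, which type I interferon induces through the receptor, the kinases Jak1 and Tyk2, and a transcription factor complex that binds the interferon-stimulated response element in DNA.

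After removal of cells with under 10% of the median total, 92 naive and 85 pretreated cells remained. Their total tags, the reads counted in a cell, had a median of 2305628 (305066 to 3857034) in naive and 2650490 (502374 to 13174313) in pretreated cells. Of 9 fibroblast markers, 6 had a peak in 20% or more of the naive or the pretreated cells, with *Vim* listed in 92 of 92 naive and 84 of 85 pretreated cells. *Thy1*, *Dcn* and *Lum* were at or near 0. Blood-cell markers were listed in 10 naive and 3 pretreated cells, mostly *Cd68* (8 and 3 cells), while *Ptprc*, *Adgre1* and *Aif1* were at 0. The summed signal of the blood-cell list ran from 0 to 2414 in naive and from 0 to 879.6 in pretreated cells (tags per 10000000 of the cell), and its part in the results was not tested. Epithelial markers were at 0 throughout and the endothelial marker *Kdr* was listed in 1 pretreated cell.

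RefSeq promoter windows of build GRCm38.p6 were at hand for 2 of the 5 members, *Dtx3l* and *Parp12*. The authors' coordinates are of build mm9, so the sequences are shown as the DNA upstream of the annotated starts and were not joined to peak positions. They are given because the interferon-stimulated response element was searched for in them. Capitals mark GAAA, the repeated core of that element, or its reverse complement TTTC. The *Dtx3l* stretch (chr16:35939028-35939277, minus strand) lies upstream of *Dtx3l*, on the side where *Parp9* is read, and has a GC content of 52.8%. The *Parp12* stretch (chr6:39118350-39118599, minus strand) has a GC content of 73.6%. Both read 5′ to 3′ and end at the base before the annotated start.
Dtx3l: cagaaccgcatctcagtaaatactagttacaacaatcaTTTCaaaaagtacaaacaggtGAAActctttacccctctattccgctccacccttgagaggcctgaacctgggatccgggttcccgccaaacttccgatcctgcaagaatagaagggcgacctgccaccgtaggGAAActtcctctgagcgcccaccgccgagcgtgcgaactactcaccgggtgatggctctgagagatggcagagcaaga
Parp12: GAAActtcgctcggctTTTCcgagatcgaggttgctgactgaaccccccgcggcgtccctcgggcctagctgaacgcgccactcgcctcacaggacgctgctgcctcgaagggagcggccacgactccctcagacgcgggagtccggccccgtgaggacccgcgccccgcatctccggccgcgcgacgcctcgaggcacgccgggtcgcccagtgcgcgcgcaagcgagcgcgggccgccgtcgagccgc
Neither full 300-base window, which also holds the first 50 transcribed bases, contained GAAANNGAAA on either strand, a core found in 3.44% of 32851 promoter windows. Neither contained the gamma-activated site TTCNNNGAA, found in 8.30%. The single core was common, with GAAA or TTTC in 89.2% of windows. In the *Dtx3l* stretch it began at positions -212, -191 and -78 from the annotated start, and in the *Parp12* stretch at -250 and -234. These letter matches describe the windows alone.

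Start peaks of all 5 genes were listed in more pretreated than naive cells. At least 1 member was listed in 26 of 92 naive cells and 73 of 85 pretreated cells. At least 3 members were listed together in 0 naive and 18 pretreated cells, and 0 cells of either group listed all 5. Signal was deposited as normalized tags, meaning tags in the peak per 10000000 tags of the same cell, and the authors' peak caller asked for a score of 200 on that scale. The listed signal can lie a little under that score. A cell without a listed peak is therefore given as listed at 0, which does not show that it lacked the RNA. In bulk terms, fewer cells with the RNA and less RNA per cell cannot be told apart below that minimum.

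*Parp9* was the member listed in the most pretreated cells, 50 of 85 (58.8%, exact binomial 95% interval 47.6 to 69.4), against 9 of 92 naive cells (9.78%, 4.57 to 17.8). Among listed cells the signal ran from 214.8 through a median of 534.7 to 2339.3 normalized tags in naive and from 205.8 through 595.25 to 1773.1 in pretreated cells. The ranges overlapped over nearly their whole length and the medians differed little, so the groups differed in how many cells were listed more than in the signal of a listed cell. Summed over all kept cells, the level was 115.4 normalized tags in naive and 375.0 in pretreated cells, giving a log2 ratio of 1.70 (counting interval 1.64 to 1.77).

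*Dtx3l*, the ligase partner, was listed in 11 of 92 naive cells (11.96%, 6.12 to 20.4) and 36 of 85 pretreated cells (42.4%, 31.7 to 53.6). Its signal in listed cells ran the other way. Naive cells spanned 233.3, a median of 1068.4 and 1798.1 normalized tags, and 7 of the 11 reached 1000. Pretreated cells spanned 201.9, a median of 392.75 and 1771.6, and 2 of the 36 reached 1000. The ranges overlapped, as did the quartile ranges, 468.85 to 1180.5 in naive and 308.5 to 595.5 in pretreated cells. Over the start peaks of all genes the median signal was also lower in pretreated cells, 797.5 against 1125.55. Those medians pool whatever peaks each group listed and do not compare gene by gene. As a log2 ratio of the medians of listed cells, pretreated over naive, *Dtx3l* was at -1.44. *Parp9* (0.15), *Parp14* (0.29) and *Parp10* (0.42, from 1 naive cell) were higher in pretreated cells. The summed level was 118.7 in naive and 242.2 in pretreated cells, giving a log2 ratio of 1.03 (0.96 to 1.10), which lies at the 2-fold line. The ratio was under 2-fold with exact window starts (0.77) and with signals of at least 400 (0.60), and it was -0.44 with peaks within 100 bp of an annotated start.

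*Parp10*, a mono-ADP-ribosyltransferase, was listed in 1 of 92 naive cells (1.09%, 0.0275 to 5.91) at a signal of 268.9 normalized tags. It was listed in 23 of 85 pretreated cells (27.1%, 17.99 to 37.8), at 214.8, a median of 359 and 871.4. The summed level was 4.18 in naive and 85.7 in pretreated cells, and the log2 ratio of 4.35 (4.05 to 4.69) rests on the 85 tags of the single naive cell. Without that cell the gene was listed at 0 in naive cells and has no ratio. With every window of the gene, at any distance, it was listed in 21 naive and 61 pretreated cells and the log2 ratio was 1.01.

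*Parp12*, a mono-ADP-ribosyltransferase with zinc fingers, was listed in 0 of 92 naive cells (exact upper limit 3.93%) and in 15 of 85 pretreated cells (17.6%, 10.2 to 27.4). Its pretreated signals spanned 207.7, a median of 392.4 and 1651.3 normalized tags, and 1 cell held 39.1% of its 2890 tags. Because the naive group was listed at 0, no fold is given. The summed pretreated level was 100.8 normalized tags.

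*Parp14*, which joins macrodomains to a transferase domain, differed least in the share of listed cells: 8 of 92 naive cells (8.70%, 3.83 to 16.4) and 15 of 85 pretreated cells (17.6%, 10.2 to 27.4). Those intervals overlap. Signals in listed cells were 254.9, a median of 390.8 and 653.4 normalized tags in naive and 241.4, 477.5 and 1968.5 in pretreated cells. The naive range lay inside the pretreated range, and 2 pretreated cells exceeded 1000. The summed level was 33.8 in naive and 92.5 in pretreated cells, giving a log2 ratio of 1.45 (1.33 to 1.58). With exact window starts it was listed in 8 naive and 9 pretreated cells, at a log2 ratio of 0.44.

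**Figure D1:**
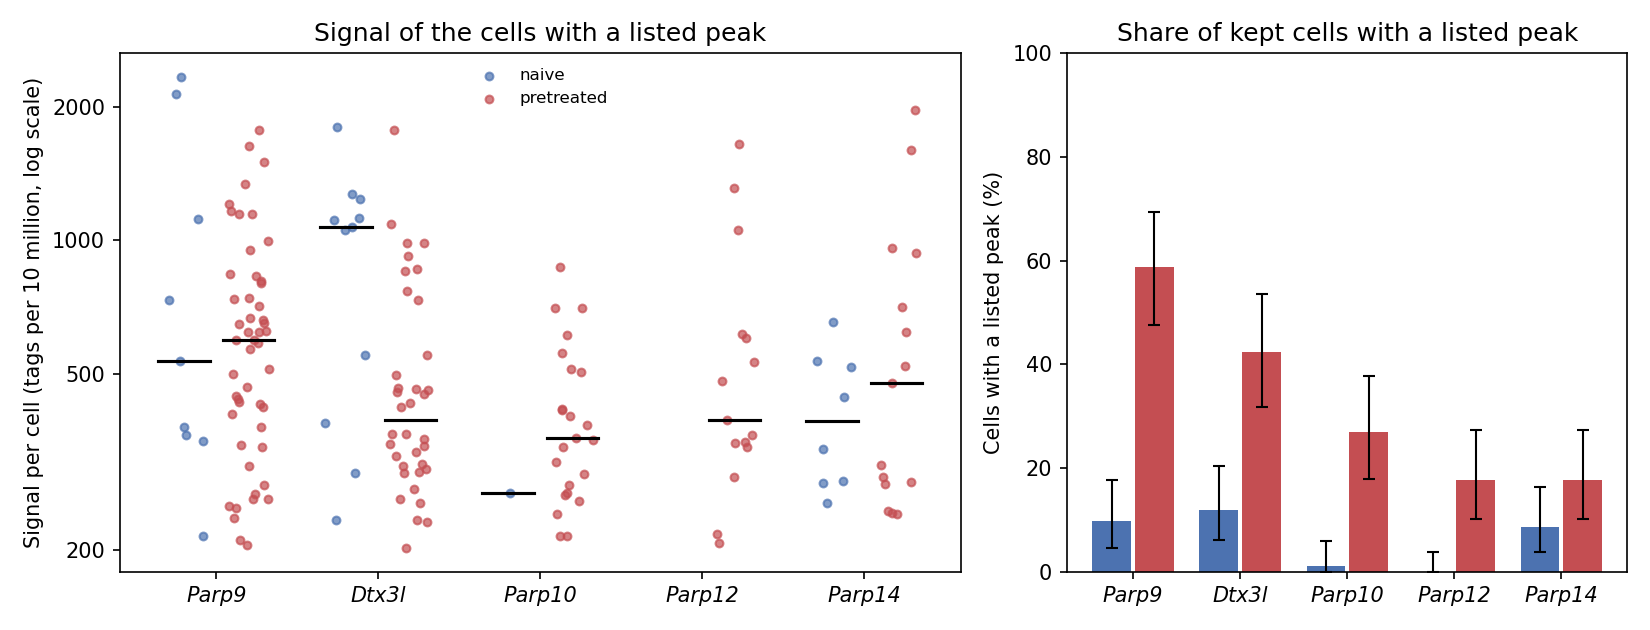
Left, deposited signal (normalized tags, log scale) of each cell with a listed peak, by gene and group, with black lines at medians; right, percent of kept cells with a listed peak and exact binomial 95% intervals. Listed shares were higher in pretreated cells for the 5 genes, from 17.6% for *Parp12* and *Parp14* to 58.8% for *Parp9*, while the signals of listed cells overlapped wherever both groups had several.

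These differences have to be read against all genes. Among 4486 genes with a listed peak in 20% or more of the naive or the pretreated cells, 30.1% were at least 2-fold higher in pretreated cells, and 29.5% had a share of listed cells at least 25 percentage points higher. The median log2 ratio of those genes was 0.47 and their median difference in share was 17.2 points, so the whole set sat higher in pretreated cells. Of the 5 members, 4 reached a log2 ratio of 1 (*Parp10*, *Parp9*, *Parp14* and *Dtx3l*), and *Parp12* was listed in pretreated cells alone. *Parp9*, *Dtx3l* and *Parp10*, 3 of the 5, were at least 25 points higher in share. The median member was *Parp9* for the ratio and *Parp10* for the share, which was 25.97 points higher.

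The members spread widely within that background. *Parp9* stood at the 96.4th percentile of genes for the difference in share (49.04 points) and the 85.8th for the log2 ratio. *Dtx3l* stood at the 80.5th percentile for share (30.4 points) and the 70.9th for ratio. *Parp10* stood at the 72.5th and 98.6th percentiles, the latter from its single naive cell. *Parp12* stood at the 51.3rd percentile for share (17.6 points). *Parp14* stood at the 28.5th percentile for share (8.95 points) and the 82.1st for ratio. Only *Parp9*, *Dtx3l* and *Parp10* passed the 20% filter themselves, each through its pretreated cells. *Parp12* and *Parp14* were listed in under 20% of the cells of either group, so their difference in share could not reach 20 points. Their ranks for share were thus capped by the filter that formed the set, and nothing is concluded from them. Scaling by median-of-ratios size factors, which removes a shift of 0.47, gave log2 ratios of 1.23 for *Parp9*, 3.88 for *Parp10*, 0.98 for *Parp14* and 0.56 for *Dtx3l*. On that scale *Dtx3l* and *Parp14* were under 2-fold, and 17.5% of all genes were at least 2-fold higher.

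**Figure D2:**
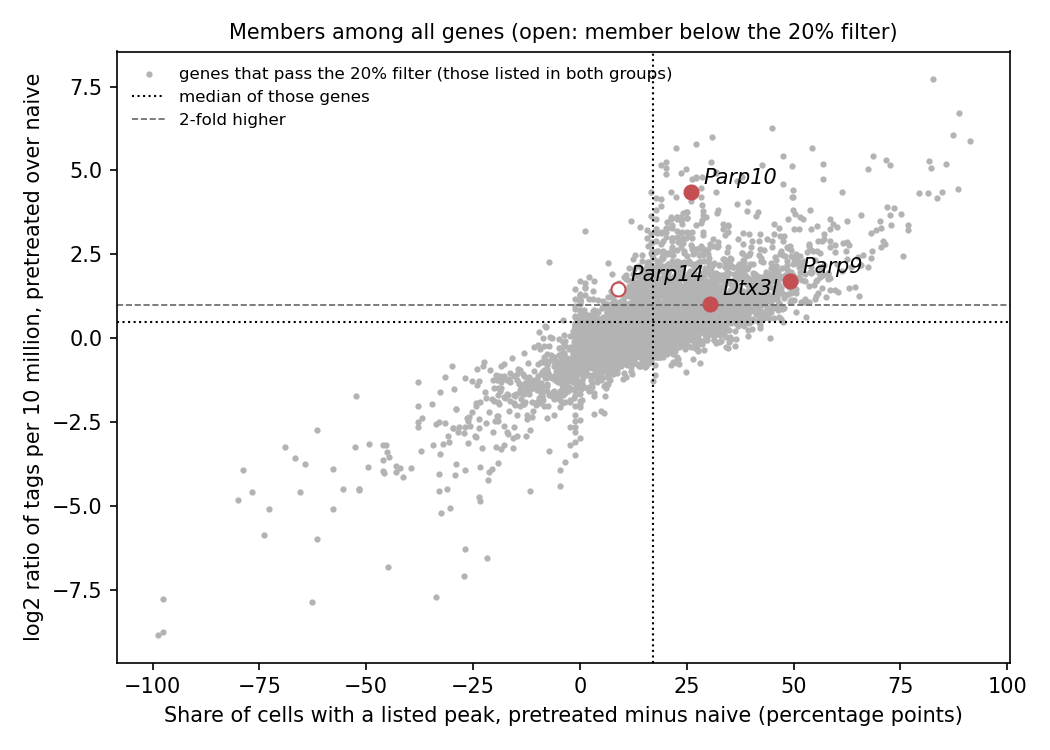
Difference in the share of cells with a listed peak (percentage points) against log2 ratio of summed tags, pretreated over naive, for genes that pass the 20% filter and are listed in both groups (grey) and 4 members (red; open where below the filter). *Parp9* lies far to the right at 49.04 points, *Parp10* high at 4.35, and *Dtx3l* and *Parp14* near the mass of genes.

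At the divergent promoter both strands were read in each group. In pretreated cells 19 listed both genes, 31 listed *Parp9* alone, 17 listed *Dtx3l* alone and 18 listed neither. In naive cells 1 listed both, 8 listed *Parp9* alone, 10 listed *Dtx3l* alone and 73 listed neither. *Dtx3l* was listed in 19 of the 50 pretreated cells that listed *Parp9* and in 17 of the 35 that did not. Spearman's rho between their signals was -0.02 over the 85 cells, as a description of sparse values.

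The balance of the strands differed between the groups. *Dtx3l* held 50.7% of the pair's tags in naive cells (49.3 to 52.1) and 39.2% in pretreated cells (38.5 to 39.97). In the 19 pretreated cells with both, its share ran from 16.9% through a median of 47.02% to 70.6%, and *Parp9* had more tags in 11 of them. In the 1 naive cell with both it was 32.4%, below that median. The size of the pooled shares depended on single cells and on the distance limit. Dropping the top cell for *Parp9* and for *Dtx3l* gave 52.2% and 43.8%, and a limit of 100 bp gave 38.3% and 12.9%. That limit was measured to the start of the gene each window is named for, which for nearly all *Parp9* peaks was *Dtx3l*. Under it *Parp9* kept 45 and *Dtx3l* 10 pretreated cells, so the limit did not treat both genes alike.

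The *Parp9* peaks lay away from its RefSeq start. The table places that start at chr16:35938556 (mm9, plus strand), which is 557 bp inside the span of *Dtx3l*, whose start is at chr16:35939113 on the minus strand. Of 59 *Parp9* peaks, 58 were in windows named for *Dtx3l*, and their centres had a median of 545 bp downstream of the RefSeq start of *Parp9*. Of the 59, 55 lay within 100 bp of a start in the authors' GENCODE-based table. *Dtx3l* peaks centred a median of 110 bp inside its own annotated start, and 42 of 48 fell in the band from 0 to 200 bp. In the 19 pretreated cells with both genes, the *Parp9* centre lay a median of 125 bp beyond the *Dtx3l* centre in the direction of *Parp9* transcription, and in 17 of the 19 the centres stood in that divergent order.

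The main *Parp9* band reached further downstream in pretreated cells. Of the 9 naive peaks, 1 centred 67 bp from the RefSeq start and 8 centred 483 to 543 bp from it, while the 50 pretreated peaks spanned 347 to 687 bp. Beyond the last naive position lay 30 of the 50, with 69.9% of the pretreated *Parp9* tags. A single cell, with its peak at 617 bp, held 21.7% of those pretreated tags. The tag-weighted median position was 48 bp further downstream in pretreated cells for *Parp9* and 30 bp for *Dtx3l*. For *Parp14* it was 4 bp further downstream and for *Parp10* 157 bp, the latter from 1 naive cell. Over 2798 genes that passed the 20% filter in both groups, the absolute shift had a median of 3 bp and a 90th percentile of 25 bp. The members fell outside that set, with under 20% of naive cells listed, so their positions rest on fewer cells than those of the set. The *Parp9* naive position rests on 9 cells and the *Dtx3l* one on 11.

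The focus ratio, the authors' fraction of a peak's tags that lie near its main position, was lower in pretreated cells at this promoter. Its median was 0.985 for *Parp9* in naive and 0.874 in pretreated cells, and 0.959 and 0.768 for *Dtx3l*. It was also lower in pretreated cells for 89.2% of the 2798 genes, with a median difference of -0.064, so a lower value was the general pattern. For *Parp14* and *Parp10* the values ran the other way. *Parp14* had medians of 0.815 in naive and 0.981 in pretreated cells, and *Parp10* had 0.919 in its single naive cell and 0.979 in pretreated cells. For *Parp14* the peaks at the annotated start differed little, 0.9535 in 4 naive and 0.978 in 7 pretreated peaks. Its intron 1 peaks had 0.55 in 3 naive and 0.976 in 7 pretreated peaks. *Parp12* had no naive peak to compare.

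**Figure D3:**
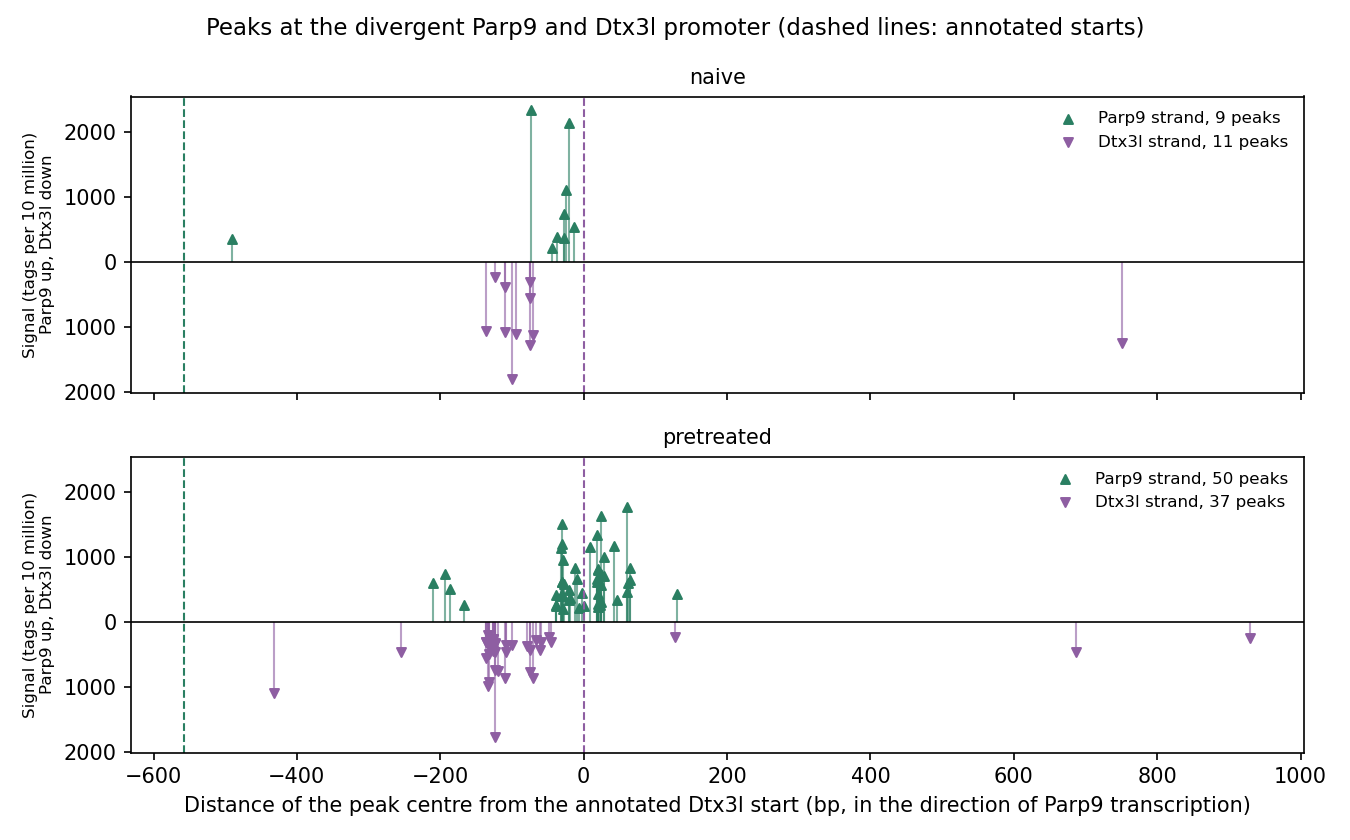
Signal (normalized tags) of each *Parp9* peak (up) and *Dtx3l* peak (down) against the distance of its centre from the annotated *Dtx3l* start in bp, naive above and pretreated below, with dashed lines at both annotated starts. Nearly all *Parp9* peaks sit close to the *Dtx3l* start and not at the *Parp9* RefSeq start 557 bp away, and in pretreated cells they extend past it.

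*Parp14* was read from 3 separate bands. At its annotated start (chr16:35871468, minus strand) centres lay between -38 and 3 bp in 4 naive cells and -4 and 7 bp in 7 pretreated cells. A band in exon 1 lay at 151 bp in 1 naive cell and 150 to 168 bp in 3 pretreated cells. A band in intron 1 lay at 653 to 660 bp in 3 naive cells and 513 to 674 bp in 7 pretreated cells. The start band held 55.5% of the naive and 50.7% of the pretreated *Parp14* tags. The exon 1 band held 4.95% and 28.8%, and the intron 1 band 39.6% and 20.5%, with 1 to 7 cells behind each share.

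*Parp10* peaks were spread more evenly. In pretreated cells 12 of 24 peaks centred 19 to 81 bp inside the annotated start (chr15:76073870, minus strand), with 49.04% of the tags. The other 12 lay 218 to 995 bp inside, in exons 2, 3 and 4. The 2 peaks just inside the distance limit, at 983 and 995 bp, had signals of 258 and 556.2 normalized tags, and the 2 just outside it, at 1114 and 1212 bp, had 269.1 and 748.8. The limit thus falls within a continuous spread of *Parp10* peaks.

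All 15 *Parp12* peaks centred 389 to 493 bp inside the annotated start (chr6:39068348, minus strand), and 0 lay within 100 bp of it. The authors' table labels their windows as the promoter of a noncoding RNA. No peak on the opposite strand was listed in those windows in either group.

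**Figure D4:**
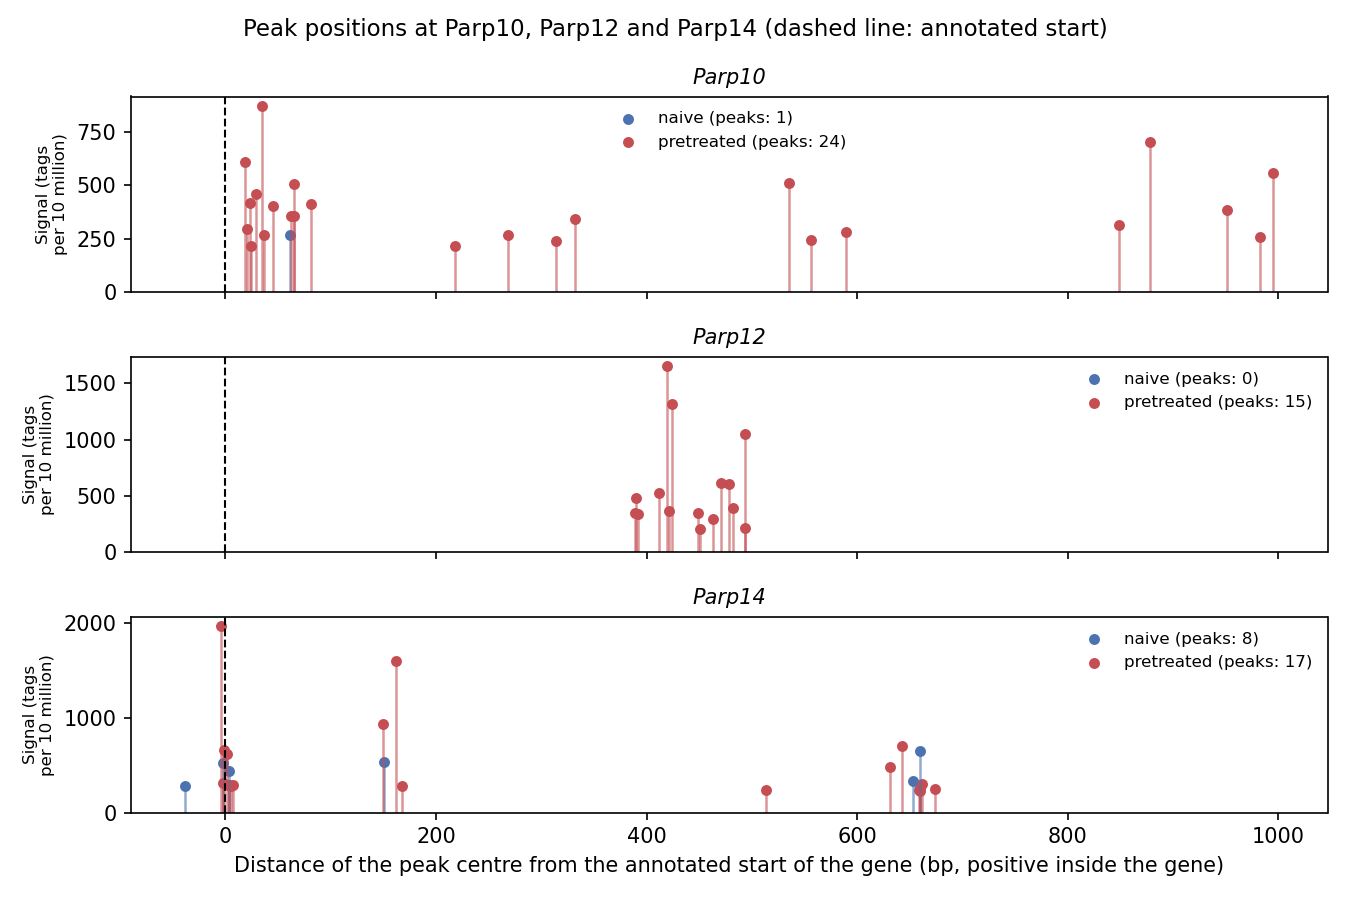
Signal (normalized tags) of each peak of *Parp10*, *Parp12* and *Parp14* against the distance of its centre from the annotated start in bp, positive inside the gene, with naive cells in blue and pretreated cells in red. *Parp12* peaks form a band at 389 to 493 bp with none at the start, *Parp14* peaks form 3 bands, and *Parp10* peaks run on to the limit of 1000 bp.

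Much of the signal in windows named for these genes lay further from their starts, mostly inside the genes. Beyond 1000 bp on the strand of the gene were 47.2% of the naive and 24.9% of the pretreated *Parp9* tags and 74.6% and 50.3% of the *Dtx3l* tags. The shares were 98.6% and 85.4% for *Parp10*, 100% and 66.01% for *Parp12*, and 94.6% and 82.9% for *Parp14*. Naive tags were thus the more distal ones for each gene. A few of these peaks lay outside the gene they were counted for, among them 5 upstream of *Parp9* in pretreated cells. Of those 5, 1 was annotated as intergenic and the others as exon or 3′ untranslated region.

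For the 4 genes with a ratio near the start, the ratio of the distal tags was lower. That distal log2 ratio, pretreated over naive, was 0.27 for *Parp9*, -0.51 for *Dtx3l*, 0.80 for *Parp10* and -0.40 for *Parp14*. For *Parp12*, which has no ratio near the start, it was 1.43. In naive *Parp14*, 3800 of 12045 distal tags came from a single peak 44746 bp from the start, in a window annotated as non-coding. Without the highest distal peak of each group its distal levels were 405.5 in naive and 387.2 in pretreated cells, and its totals at any distance were 439.3 and 479.7, a choice made after seeing the data.

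The 3′ untranslated region held most of the distal tags of pretreated *Parp14*, 76.9%, against 34.4% in naive cells. The naive share is 4139 of 12045 tags, and those 12045 include the single non-coding peak of 3800. *Parp14* peaks there were listed in 11 naive and 48 pretreated cells, with a log2 ratio of 0.76 (0.71 to 0.82). More pretreated cells were listed there than at the *Parp14* start. For *Dtx3l* the same region held 53.5% and 60.4% of the distal tags, in 12 naive and 33 pretreated cells, with a log2 ratio of -0.34 (-0.40 to -0.27). A single naive peak, 9905 bp from the *Dtx3l* start, held 1296 of the 3795 naive tags there. That ratio therefore leans on 1 cell, which its counting interval does not cover. Distal *Parp12* tags were 97.4% intronic in naive cells and 60.5% exonic in pretreated cells.

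**Figure D5:**
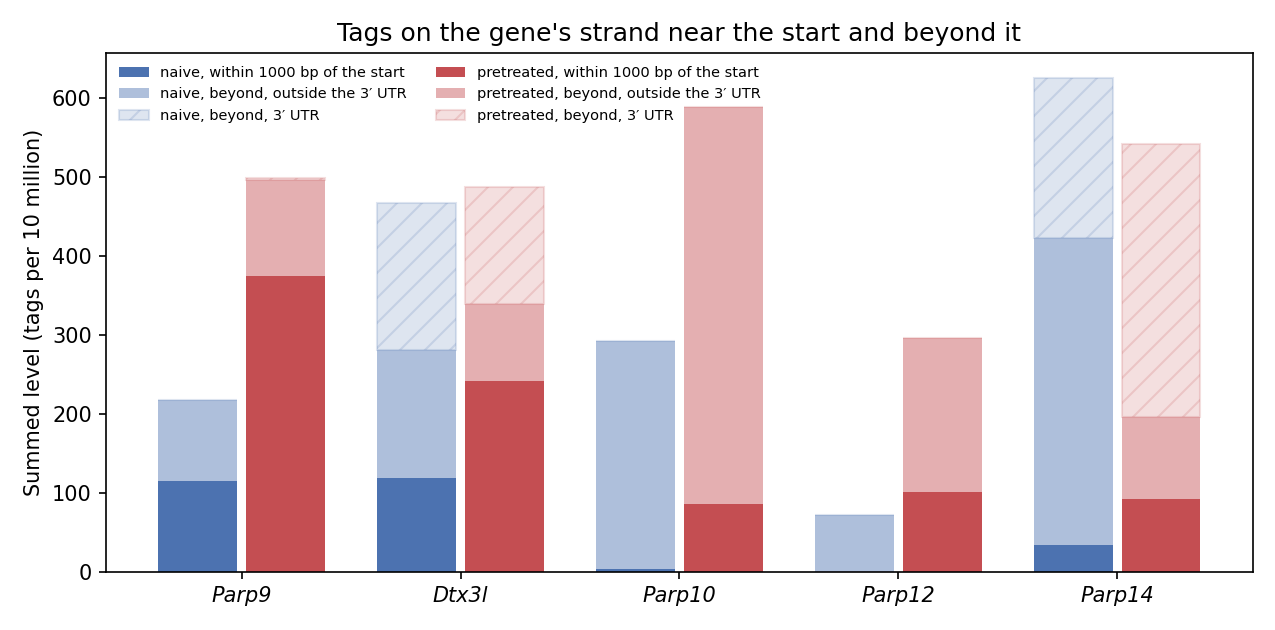
Summed level (tags per 10000000 tags of the group) on the strand of each gene, split into tags within 1000 bp of the annotated start (dark), tags beyond it outside the 3′ untranslated region (light) and tags in that region (hatched), for naive (blue) and pretreated (red) cells. The dark part is larger in pretreated cells for each gene, and the *Parp14* total is 626.2 in naive and 542.3 in pretreated cells, or 439.3 and 479.7 without the distal peak with the most tags of each group.

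At *Parp10* the 2 annotations split the locus differently. The RefSeq-based table gives minus-strand windows at chr15:76063505-76065962 to the neighbouring gene *Plec*, and the GENCODE-based table gives them to *Parp10*. Peaks there were listed in 10 naive and 63 pretreated cells, at 87.4 and 592.9 normalized tags. Both genes are on the minus strand, so these tags cannot be assigned to either by strand. With the GENCODE-based table *Parp10* was listed in 11 naive and 71 pretreated cells, with a log2 ratio of 2.89. The same table listed *Parp12* in 8 naive and 23 pretreated cells.

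The nearest other genes on each side of the members were listed in a larger share of pretreated than naive cells, as the median gene was, but their ratios varied. *Grina*, 3.36 kb from *Parp10* on the opposite strand, was listed in 12 naive and 81 pretreated cells, with a log2 ratio of 5.08. Plus-strand peaks within the *Parp10* windows were listed in 1 naive and 6 pretreated cells, and with both strands counted the *Parp10* log2 ratio was 2.72. Around the *Parp9* and *Dtx3l* locus, *Kpna1* had a log2 ratio of -0.00080 and *Hspbap1* one of 0.27, both under the median gene, while the sparsely listed *Wdr5b* (3 naive and 7 pretreated cells) had 1.14. Beside *Parp12*, *Hipk2* and *Slc37a3* were listed in 1 and 7 naive and 3 and 14 pretreated cells.

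Of 12 other PARP genes, 5 passed the 20% filter, 1 of which was at least 2-fold higher and 0 of which were 2-fold lower, with a median log2 ratio of 0.44 beside 0.47 for all genes. In share of cells, 3 of the 5 were at least 25 points higher, with a median of 30.6 points beside 17.2 for all genes. The one higher was *Parp11*, a mono-ADP-ribosyltransferase, listed in 11 naive and 54 pretreated cells with a log2 ratio of 2.44. *Zc3hav1*, which encodes the zinc-finger antiviral protein ZAP, was listed in 34 naive and 64 pretreated cells with a log2 ratio of 0.44. *Parp2*, a DNA-damage PARP, had -0.98. The genes below the filter were listed in at most 10 cells of a group.

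Genes that remove or bind ADP-ribose were sparsely listed. Of 8, 2 passed the filter and 0 reached 2-fold in either direction: the hydrolase gene *Oard1* had a log2 ratio of -0.44 and *Gdap2*, which encodes a macrodomain protein, one of -0.32. None of the 4 other Deltex ligase genes passed the filter.

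Among the interferon signalling genes that passed the filter, *Irf7*, an interferon regulatory factor, had a log2 ratio of 5.66 and was listed in 2 naive and 48 pretreated cells. The receptor chain gene *Ifnar2* had 2.97, with 7 naive and 55 pretreated cells. *Usp18*, which encodes a protease that removes ISG15, had 1.62 and the most pretreated tags of the list. It was listed in 76 of 92 naive and 84 of 85 pretreated cells. The transcription factor genes *Stat2* (0.05) and *Irf9* (0.29) were within 2-fold. At 1.70, *Parp9* lay close to *Usp18* in ratio but not in share of cells. *Parp9* was listed in 9 naive cells and was 49.04 points higher in pretreated cells, against 16.2 points for *Usp18*.

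Within the pretreated group the members' signals showed little relation to each other or to depth. Spearman's rho over 85 cells lay between -0.02 and 0.16 for the pairs of members and between -0.20 and 0.10 with the total tags of the cell. The genes most like each member by rho were *Dtd2* (0.42), *Twist2* (0.39) and *Chchd3* (0.38) for *Parp9*. They were *Pla2g4a* (0.37), *Tmem29* (0.37) and *Pes1* (0.35) for *Dtx3l*, and *Thrap3* (0.39), *Dpf2* (0.39) and 2410131K14Rik (0.36) for *Parp10*. They are the highest of 4373 genes compared, and the values are weak correlations of sparse signals that share each cell's library and depth.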

How the data were processed

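Single-cell TSS-seq peaks of 96 naive and 96 pretreated MEFs were used, 1 deposited list per cell. Reads were aligned to mm9 with Bowtie2 and peaks were made with HOMER, per the submitters' processing notes. Versions are not given in the sources used here. Per the file headers, peaks were 150 bp wide, were asked to reach a score of 200 per 10000000 tags (the listed signal can be lower, down to 185.3 in a peak used here), and were at least 2-fold above the surrounding 10000 bp. The deposited signal is the tag count per 10000000 tags, and the deposited focus ratio is a fraction from 0 to 1. Tag counts were recovered from the signal and the header total of each cell, and all 1082504 came out whole within 0.1 tag. Tags are reads, not molecules. The strand of each gene was taken from its GENCODE annotation by the window's Ensembl identifier, or by symbol where that gave none. The 2 deposited matrices with 384 unnamed columns were not used.

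Cells under 10% of the median total were left out. Tags were summed per gene and group, divided by the group's total tags, and compared as a log2 ratio with 0.5 tag added. Intervals are exact (binomial for shares, conditional binomial for ratios), at 95%. No test was made, as each group is 1 sample. The log2 ratio and its interval were checked on counts simulated from the summed levels. The assignment of peaks to genes and the summing over cells were not part of that check. Members, lists and motifs were chosen with earlier results of these data known. The text names all 5 members, list genes that pass the 20% filter and reach 2-fold, the 2 with the most tags, and the 3 genes most like each member. Other genes were named after their values were seen. One result of the interferon signalling list is not reported here. The single GAAA core was added after the search for the full motifs. Python 3.11.15, numpy 2.4.6, pandas 2.3.3 and scipy 1.17.1 were used.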

Additional observations from a re-analysis of the deposited data

How the results depend on the processing

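No paired analysis was possible because cell numbers only name cells and no result comes from a test. The count of members at least 2-fold higher, with *Parp12* (listed at 0 in naive cells) counted as higher, was 5. It was 3 with a distance limit of 100 bp, with every window, with median-of-ratios scaling, with exact window starts, and with windows named for the gene itself, an alternative chosen after seeing the data. Under that last setting *Parp9* kept 1 naive and 0 pretreated peaks. The count was 4 with equal weight per cell, with signals of at least 400 and with the GENCODE table. The log2 ratio of *Dtx3l* reversed to -0.44 at 100 bp and that of *Parp14* to -0.21 with every window, or 0.13 once the distal peak with the most tags of each group was also left out (chosen after seeing the data). In the 100 bp setting the distance was taken to the start of the gene each window is named for. Nearly all *Parp9* peaks were thus measured from the *Dtx3l* start.

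The median log2 ratio of 1.70 was 1.47 at 100 bp, 1.01 with every window, 1.23 with median-of-ratios scaling, 2.12 with equal weight per cell, 1.83 without the highest cells, 1.79 with signals of at least 400, 1.78 with the GENCODE table, 2.25 with exact window starts and 1.45 with windows named for the gene itself. The median difference in share of 25.97 points was 5.24 at 100 bp, 40.5 with every window and 11.8 with signals of at least 400.

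The naive and pretreated *Dtx3l* shares of the pair's tags, 50.7% and 39.2%, were 38.3% and 12.9% at 100 bp, 68.2% and 49.4% with every window, 55.4% and 36.1% with equal weight per cell, 52.2% and 43.8% without the highest cells, 52.2% and 32.4% with signals of at least 400, and 52.2% and 38.3% with the GENCODE table. The naive share was 64.6% with exact window starts. With windows named for the gene itself the shares were 94.8% and 100%. The cause of these movements was not tested. With signals of at least 400, without the highest cell and with exact window starts, *Parp10* had no naive peak and gave no ratio. The peak minimum limits what low signals can show.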
